A study of Mus musculus with 6 samples.

Results

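Collagens, laminins and integrins build the extracellular matrix and hold cells to it, and their mRNA levels were examined in embryoid bodies (EBs) that had been differentiated for 4 days (D4) from mouse embryonic stem cells (mESCs). Members were taken by symbol: every listed gene whose name has the form of a collagen chain (Col, number, a, number), a laminin chain (Lama, Lamb or Lamc and a number) or an integrin subunit (Itga or Itgb followed by a number or v). This rule took 72 of the 15266 listed genes. Of these, 68 encode a collagen, laminin or integrin chain, and the other 4 (*Col4a3bp*, *Itgb1bp1*, *Itgb1bp2* and *Itgb3bp*) only carry a similar symbol. The 68 comprised 7 collagens of basement membranes, 11 fibrillar collagens, 20 other collagens, 11 laminin chains, 12 integrin alpha subunits and 7 integrin beta subunits. Integrins whose symbol ends in another letter, such as *Itgal*, fell outside the rule. The rule used no measured value.

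The study compared EBs of a pair of gene-edited lines to ask whether the non-coding RNA *Evx1as* acts apart from its neighbour *Evx1*, a homeobox transcription factor gene of the primitive streak. Both lines derive from W9.5 mESCs, and EBs of both were grown in suspension for 4 days in serum without LIF. EVX1-Δfs (clone 14, a single clone) carries CRISPR-made frameshift deletions in the second exon of both *Evx1* alleles, within the homeodomain, so that the locus is transcribed but the protein lacks its DNA-binding domain. Del#3 carries a CRISPR-made deletion of 2.6 kb at the *Evx1* and *Evx1as* locus, which takes out both alternative promoters of *Evx1as* and exon sequence downstream of its first exon. Each line has 3 mRNA-seq libraries. The design text describes the replicates as side by side differentiations of the lines, each on its own day, and equal replicate numbers were taken to be such pairs, although the library titles give no day. Both lines thus lack functional EVX1, and the comparison is between the deletion and the frameshift; wild-type EBs were not analysed here.

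Basement membranes are thin sheets in which a network of laminin trimers, each of an alpha, a beta and a gamma chain, is joined to a network of type IV collagen by linkers such as nidogen and perlecan. Fibrillar collagens (types I, II, III, V, XI, XXIV and XXVII) form the cables of interstitial matrix and are typical of mesenchyme and cartilage. Integrins are paired alpha and beta subunits that span the cell membrane and bind laminin, collagen, fibronectin or vitronectin outside the cell. In the gastrulating embryo the epiblast rests on a basement membrane, which cells cross as they pass through the primitive streak.

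The libraries held 9024579 to 15699124 reads on listed genes. Replicate 1 was the deepest in both lines, with 15699124 reads in EVX1-Δfs and 12231851 in Del#3, and the others held 9024579 to 9802928. *Evx1* had 2582 to 4023 reads in the EVX1-Δfs libraries and 28 to 48 in the Del#3 libraries, and its log2 fold change of -6.45 passed the test (limma, adjusted p = 1.05e-06). *Evx1as* had 571 to 879 and 21 to 30 reads, with a log2 fold change of -4.70 (limma, adjusted p = 0.000155). These were the only 2 of the 12891 genes tested that passed, which is 0.0155% of them. Markers of the streak and epiblast were present in both lines: the summed level of 8 primitive streak and nascent mesoderm genes was 8889 to 10759 normalized counts in EVX1-Δfs and 7485 to 9947 in Del#3, and that of 6 epiblast genes was 9231 to 11374 and 7200.4 to 11557. The epiblast sum was led by *Pou5f1*, at 4444 to 7890. Within it, *Zfp42* stood at 343, 341 and 457 in EVX1-Δfs and at 288, 181 and 187 in Del#3, without overlap. Its log2 fold change of -0.82 did not pass the test (limma, unadjusted p = 0.0156). Of all genes tested, 1.03% had an unadjusted p under 0.05. The summed level of 11 primitive and visceral endoderm genes was 2675 to 3211 normalized counts in EVX1-Δfs and 2613 to 2874 in Del#3. For 5 parietal endoderm genes it was 1520 to 1730 and 1432 to 1657, and for 3 endothelial genes 240 to 342 and 216 to 421. The part of these cell types in the levels below was not tested. Of the 3 neurectoderm markers, *Sox1* and *Pax6* lay near 0 in all libraries, at no more than 10.7 normalized counts, while *Nes* stood at 1459.9 to 2275. EBs are mixtures of cell types, and in bulk RNA fewer cells of a type and less RNA per cell cannot be told apart.

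Promoter sequence is shown for the leading genes of the families, those of highest level per length of mRNA, because the levels and shares below turn on them. *Col4a1* and *Col4a2*, the chains of the common type IV collagen, lie head to head on chromosome 8, and their annotated transcripts overlap by 22 bases, so that the first bases of both are the same stretch on opposite strands. That stretch is given on the strand of *Col4a2*. For *Col5a1* (fibrillar), *Lama5* (laminin) and *Itgb1* (integrin) the 250 bases before the start are given on the strand of the gene. Capitals mark GGGCGG (the GC box), CCAAT or TATAAA on either strand. Coordinates are those of NCBIM37 (mm9), and the start sites are those of RefSeq's table.
Col4a1 and Col4a2 start sites, chr8:11312805-11312826 (+ strand): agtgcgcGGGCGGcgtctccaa
Col5a1, chr2:27741695-27741944 (+ strand): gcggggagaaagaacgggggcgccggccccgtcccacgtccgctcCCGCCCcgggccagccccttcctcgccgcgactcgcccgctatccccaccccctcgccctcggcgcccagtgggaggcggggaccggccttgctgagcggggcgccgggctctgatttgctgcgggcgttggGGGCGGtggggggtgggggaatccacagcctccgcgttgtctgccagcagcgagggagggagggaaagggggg
Lama5, chr2:179960565-179960814 (- strand): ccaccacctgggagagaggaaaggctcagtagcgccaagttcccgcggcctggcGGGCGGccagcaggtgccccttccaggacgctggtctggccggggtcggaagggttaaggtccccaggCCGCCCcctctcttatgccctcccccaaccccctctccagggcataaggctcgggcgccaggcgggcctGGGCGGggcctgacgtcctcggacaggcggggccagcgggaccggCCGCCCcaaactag
Itgb1, chr8:131209304-131209553 (+ strand): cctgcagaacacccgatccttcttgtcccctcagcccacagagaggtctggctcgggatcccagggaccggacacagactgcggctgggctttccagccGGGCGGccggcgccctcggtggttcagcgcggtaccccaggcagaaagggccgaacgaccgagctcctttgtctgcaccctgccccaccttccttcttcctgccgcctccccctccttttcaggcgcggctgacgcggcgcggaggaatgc

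All 4 stretches are rich in G and C, from 68.0% in *Itgb1* to 76.4% in *Col5a1*, and the 250 bases of *Lama5* hold 4 GC boxes. None of the 4 holds CCAAT or TATAAA, although the windows of *Col4a1* and *Col4a2* that reach 250 bases before and 50 after the start hold 1 CCAAT each. Windows of that size were matched by symbol for 50 of the 72 members, 48 of them chains. A GC box was found in 29 of the 48 (60.4%), against 35.9% of all 27025 promoters in the table, and CCAAT in 14 of the 48 (29.2%, against 37.9%). TATAAA was found in 4 of the 48 (8.33%, against 14.2%). All 6 basement membrane collagens with a window held a GC box and 5 of the 6 held CCAAT, whereas 4 of 10 integrin alpha subunits held a GC box and 0 of 10 CCAAT. The windows of *Col4a1* and *Col4a2* share 78 bases. The 1 GC box in the window of *Col4a1* lies in the printed stretch, which both windows hold. These genes are therefore not independent in the counts. The motifs were counted separately. The median G and C content was 60.0% in the chains and 52.7% in all promoters. A match is a run of letters, not a known site of binding.

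Of the 68 chains, 56 had enough reads to be tested, and the other 12 (*Col4a3*, *Col5a3*, *Col6a4*, *Col6a5*, *Col12a1*, *Col17a1*, *Col19a1*, *Col20a1*, *Lama2*, *Itga11*, *Itgb2* and *Itgb8*) had at most 25 reads in any library. Levels of different genes are compared here as normalized counts per kilobase (kb) of exon, averaged over the 6 libraries. The receptor subunit *Itgb1*, the beta chain shared by most matrix-binding integrins, was highest at 1240.0 per kb, which ranked 506 of the 12151 tested genes with a length. *Col4a1* followed at 791 per kb (rank 839), then *Itgb5*, the beta chain of a vitronectin receptor, at 375, and *Col4a2* at 369. The ranges of *Itgb1* and *Col4a1* over libraries overlap, and *Itgb5* and *Col4a2* did not differ beyond the spread over libraries, which ran from 335 to 399 for *Itgb5* and from 289 to 456 for *Col4a2*. Next came *Col18a1* (223 per kb), *Lama5* (197), *Itga5* (173), *Lamb1* (139), *Lamb2* (119.6), *Lamc1* (115) and *Col5a1* (98.2), neighbours whose ranges over libraries overlap. At the other end, the epithelial laminin chain *Lama3* was at 1.23 per kb. Together the 68 chains took 0.207 to 0.313% of the reads on listed genes.

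**Figure D1:**
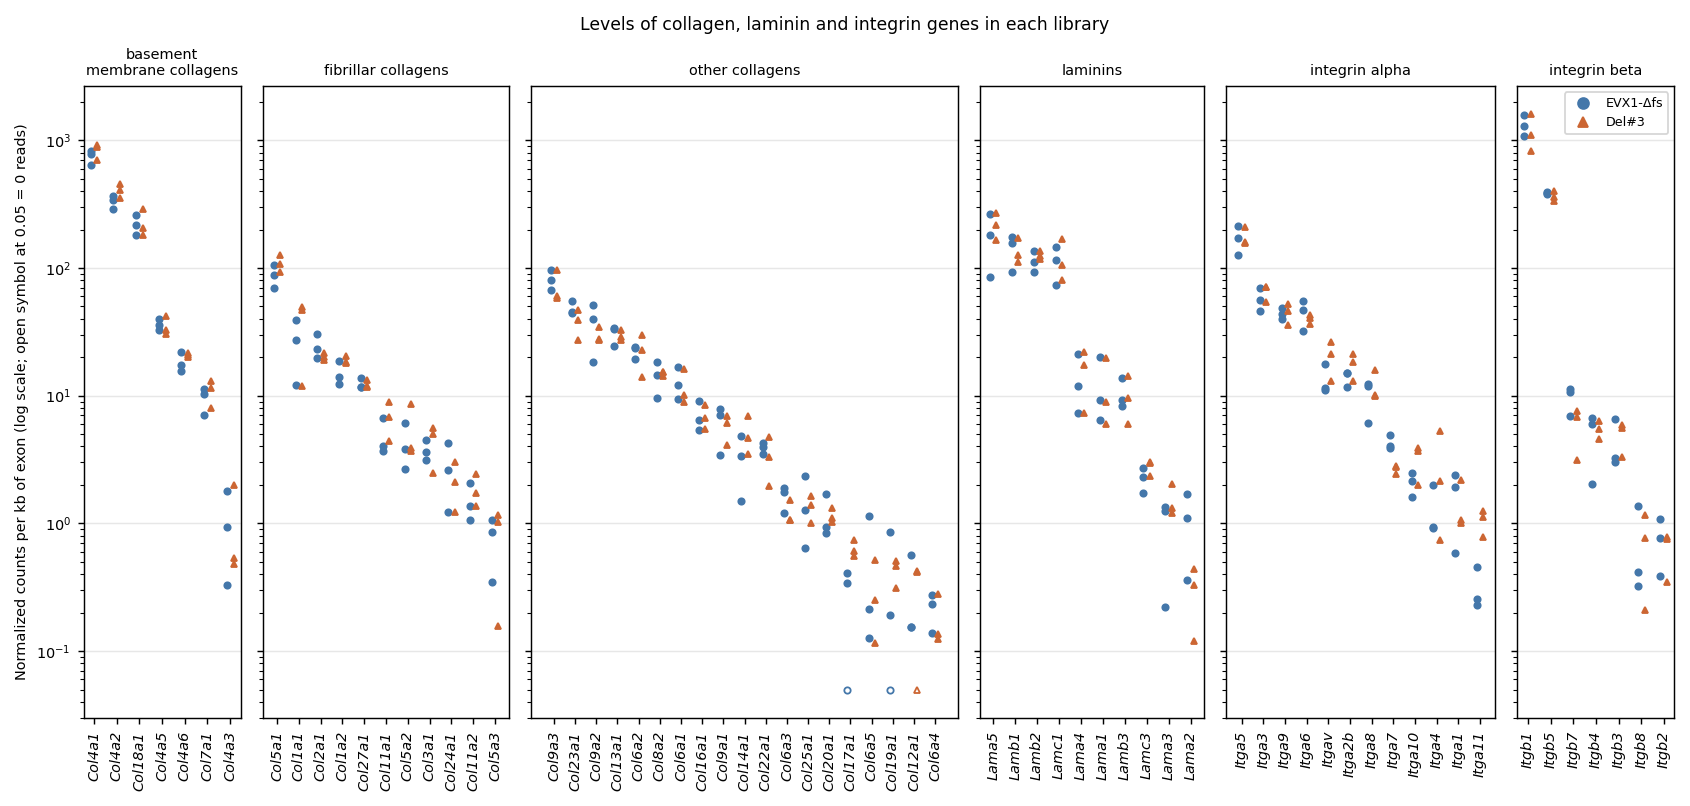
Normalized counts per kb of exon (log scale) of the chains with a length in each library, by family; circles are the 3 EVX1-Δfs libraries, triangles the 3 Del#3 libraries, and open symbols mark 0 reads. *Itgb1* and *Col4a1* stand highest, and the symbols of the lines overlap for every gene but *Itga7*, *Itga11* and *Col17a1*.

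Type IV collagen was the leading collagen in both lines, and the difference between the lines was bounded within 2-fold. The values of each gene are given in the order of the replicate numbers. *Col4a1* stood at 5593, 5354 and 4347 normalized counts in EVX1-Δfs and at 5999, 4769 and 6278 in Del#3. *Col4a2* stood at 2269.7, 2406 and 1915 and at 3015, 2346 and 2715. For both genes the lowest library was EVX1-Δfs replicate 3 and the lines overlapped. The log2 fold change of Del#3 against EVX1-Δfs was 0.15 (95% confidence interval -0.35 to 0.66) for *Col4a1* and 0.29 (95% confidence interval -0.20 to 0.78) for *Col4a2* (limma, adjusted p = 1.00 for both), so that a change of 2-fold lay outside both intervals. The less common chains *Col4a5* and *Col4a6*, which also lie head to head, 1308 bases apart, had lower levels: *Col4a5* was 242 ± 23.8 normalized counts (SD) over the 3 EVX1-Δfs libraries and 235 ± 40.7 over those of Del#3, and *Col4a6* was 146 ± 27.4 normalized counts (SD) over the 3 EVX1-Δfs libraries and 167 ± 6.998 over those of Del#3. Neither passed the test, with log2 fold changes of -0.054 and 0.21. *Col4a3*, a chain of the kidney glomerulus, had only 5 to 17 reads and was not tested.

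*Col18a1*, the basement membrane collagen that gives rise to endostatin, stood at 1823, 1528 and 1263 normalized counts in EVX1-Δfs and at 2049.8, 1454 and 1271 in Del#3. Its replicate 1 was the highest library in both lines, and the log2 fold change between the lines was 0.035 (95% confidence interval -0.54 to 0.61). *Col7a1*, the collagen of anchoring fibrils, was 97.3 ± 22.4 normalized counts (SD) over the 3 EVX1-Δfs libraries and 111 ± 26.3 over those of Del#3. Over the 6 tested basement membrane collagens, 5 log2 fold changes lay above 0 and 1 below, with a median of 0.17, against 0.0022 over all genes tested. Without EVX1-Δfs replicate 3 the median was 0.017, and with the correction for exon length it was -0.0016. All 6 had a 95% confidence interval within a 2-fold change either way, as had 61.1% of all genes.

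As a share of the summed collagen level per kb, *Col4a1* made up 42.6, 40.3 and 40.3% in the EVX1-Δfs libraries and 40.7, 40.6 and 43.7% in the Del#3 libraries, a range of 40.3 to 43.7% over the 6. The share of *Col4a2* was 17.8, 18.7 and 18.3% in EVX1-Δfs and 21.1, 20.6 and 19.5% in Del#3, so that every Del#3 library lay above every EVX1-Δfs library. This was 1 of 4 shares without overlap among the 36 computed, and its exact permutation test (two-sided) can give no p below 0.1 with 3 libraries against 3. If libraries are exchangeable between the lines, each share fails to overlap with a probability of 0.1. The others without overlap were those of *Itga7*, of *Itga11*, and of *Col4a1* and *Col4a2* together, which contains this share. The ratio of the *Col4a1* to the *Col4a2* level stayed between 1.93 and 2.39, while the ratio of *Col1a1* to *Col1a2*, the chains of type I collagen, ran from 0.653 to 2.78 and that of *Col4a5* to *Col4a6* from 1.39 to 2.31. Basement membrane collagens as a group made up 73.5 to 78.3% of the collagen level, fibrillar collagens 9.004 to 11.8% and the other collagens 10.8 to 17.5%.

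The laminin mRNAs were mainly those of *Lama5*, *Lamb1*, *Lamb2* and *Lamc1*, the chains of the alpha 5 laminins, in both lines. *Lama5* stood at 2082, 3032 and 976 normalized counts in EVX1-Δfs and at 3064, 1879 and 2475 in Del#3. EVX1-Δfs replicate 3 was far below the other libraries, and the lines overlapped. *Lamb1* stood at 1728, 1549 and 924 and at 1687, 1114 and 1252, and *Lamc1* at 1212, 949 and 612 and at 1385, 669 and 873. Both had their lowest library in EVX1-Δfs replicate 3 and their highest levels in replicate 1 of the lines. The log2 fold change was 0.40 (95% confidence interval -0.44 to 1.25) for *Lama5*, -0.024 (95% confidence interval -0.66 to 0.62) for *Lamb1*, 0.066 (95% confidence interval -0.67 to 0.80) for *Lamc1* and 0.16 (95% confidence interval -0.36 to 0.69) for *Lamb2*, and none passed the test. The *Lama5* value rests on 1 library: without EVX1-Δfs replicate 3 it was -0.051.

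*Lama1*, the alpha chain of the first laminin of the embryo, stood at 189, 87.9 and 61.4 normalized counts in EVX1-Δfs and at 188, 56.9 and 84.4 in Del#3, and in both lines replicate 1 was at least at 188 while the other replicates were at no more than 87.9. Its log2 fold change was -0.059 (95% confidence interval -1.19 to 1.07). *Lama3* had the highest log2 fold change of all members, 0.90 (95% confidence interval -0.52 to 2.31), from 2.34 to 14.2 normalized counts in EVX1-Δfs and 12.8 to 21.5 in Del#3, so that its interval was the widest among the laminins and the lines overlapped. Without EVX1-Δfs replicate 2, which held 2 reads, it was 0.18, and without EVX1-Δfs replicate 3 it was 1.28. *Lama4*, of mesenchymal and vascular laminins, was 163 ± 86.2 normalized counts (SD) over the 3 EVX1-Δfs libraries and 188 ± 90.1 over those of Del#3. *Lama2* had 1 to 25 reads and was not tested. In all, 6 of 10 tested laminins lay above 0 and 4 below, with a median of 0.11. Without EVX1-Δfs replicate 3 the median was -0.11, and with the correction for exon length -0.088.

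Among the alpha and the gamma chains, the leading gene was the same in every library. *Lama5* made up 80.5 to 92.5% of the summed alpha chain level per kb, and *Lamc1* 85.99 to 94.7% of the gamma chain level. The beta chain level was shared between *Lamb1* (44.7 to 59.03%) and *Lamb2* (37.8 to 49.9%), whose order changed: *Lamb1* led in EVX1-Δfs replicates 1 and 2 and Del#3 replicate 1, *Lamb2* led in Del#3 replicates 2 and 3, and in EVX1-Δfs replicate 3 they were even. The ratio of *Lamb1* to *Lamc1* was 1.02 to 1.39, and that of *Lama5* to *Lama1* 9.17 to 28.8.

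**Figure D2:**
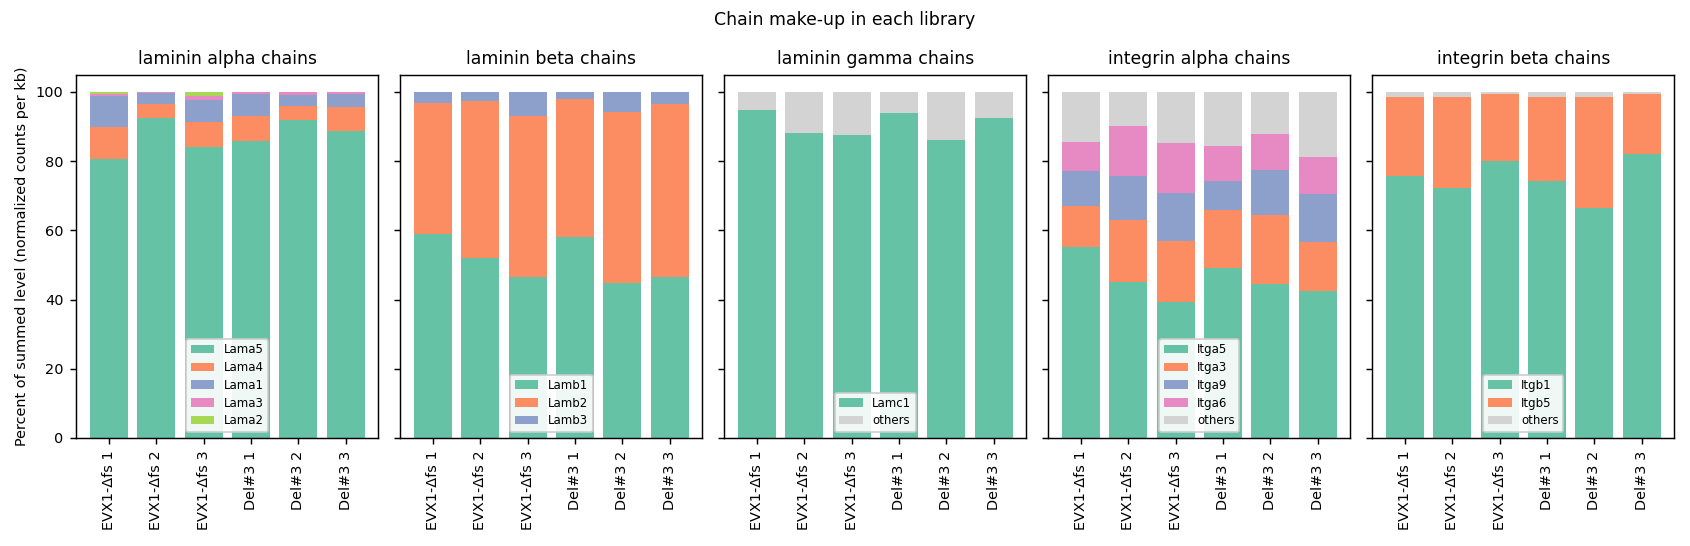
Share (percent) of the main chains, with all others in grey, in the summed level per kb of laminin alpha, beta and gamma chains and of integrin alpha and beta chains, in each of the 6 libraries. *Lama5*, *Lamc1*, *Itga5* and *Itgb1* led their families in every library, while *Lamb1* and *Lamb2* had similar shares.

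Fibrillar collagens were below *Col4a1* and *Col4a2* in level per kb, and the gene of type V collagen, *Col5a1*, which starts and thins collagen fibrils, was the highest of them. *Col5a1* stood at 749, 893 and 589.6 normalized counts in EVX1-Δfs and at 918, 784 and 1069 in Del#3, with a log2 fold change of 0.32 (95% confidence interval -0.23 to 0.87). *Col1a1* stood at 255, 179 and 79.2 in EVX1-Δfs and at 307, 77.8 and 324 in Del#3. It was low in EVX1-Δfs replicate 3 and Del#3 replicate 2 and high in the others of each line, which left an interval of -0.91 to 1.64 around a log2 fold change of 0.36. Its partner *Col1a2* stood at 169.6, 227 and 151 and at 222, 221 and 249, with a log2 fold change of 0.35 (95% confidence interval -0.25 to 0.95). Without Del#3 replicate 2, the value for *Col1a1* was 1.03 (limma, unadjusted p = 0.0486, adjusted p = 0.999), and without EVX1-Δfs replicate 3 it was -0.11.

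*Col2a1*, the main collagen of cartilage and also made by notochord, stood at 139, 184 and 119 normalized counts in EVX1-Δfs and at 120.3, 115 and 129 in Del#3. The lines overlapped, with a log2 fold change of -0.26 (95% confidence interval -0.90 to 0.39). *Col3a1*, typical of loose mesenchyme, had 20.9 to 47.0 normalized counts over the 6 libraries and a log2 fold change of 0.15. *Col5a2* and *Col11a1* had log2 fold changes of 0.32 and 0.48, each with at least 1 Del#3 library inside the EVX1-Δfs range. Of the 10 tested fibrillar collagens, 7 lay above 0 and 3 below, with a median of 0.30, and 0 passed the test. Without Del#3 replicate 1 the median was 0.029. Beside this, the summed level of 5 listed mesenchyme and fibroblast markers was 572 to 665 normalized counts in EVX1-Δfs and 669 to 691 in Del#3, without overlap. Without *Acta2*, a smooth muscle actin gene, the other 4 summed to 479.8 to 593 in EVX1-Δfs and 523 to 598 in Del#3, which overlap. *Acta2* had a log2 fold change of 0.73, *Pdgfrb* 0.12, *Twist2* -0.033 and *Thy1* -0.10. None of the 4 tested passed, and their part in the fibrillar values was not tested.

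The other collagens, which bind to fibrils, form beaded filaments or span the membrane, lay more often below 0 than above (10 against 4 of the 14 tested), with a median of -0.063. Without EVX1-Δfs replicate 2 the median was 0.014, and without Del#3 replicate 2 it was 0.023. *Col9a3*, a cartilage collagen that coats type II fibrils, was the highest of them per kb, and stood at 314 ± 55.9 normalized counts (SD) over the 3 EVX1-Δfs libraries and 274 ± 82.6 over those of Del#3. The membrane-spanning *Col23a1* stood at 315, 253 and 258 in EVX1-Δfs and at 269, 157 and 225 in Del#3. Its log2 fold change was -0.37 (95% confidence interval -1.003 to 0.26). *Col6a3*, of beaded filament collagen VI, stood at 14.5, 21.1 and 22.4 and at 12.8, 12.8 and 18.2, with a log2 fold change of -0.38 (95% confidence interval -1.35 to 0.58). The fibril-associated *Col14a1* stood at 33.7, 10.5 and 23.6 and at 32.7, 48.8 and 24.6. Its log2 fold change was 0.71 (95% confidence interval -0.40 to 1.81). The highest library was Del#3 replicate 2 and the lowest EVX1-Δfs replicate 2. None of the 14 passed the test. *Col17a1*, of epithelial hemidesmosomes, had at most 4 reads in any library.

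*Itgb1* led the beta and *Itga5* the alpha subunits, which together make a fibronectin receptor, and *Itgb5* stood between them in level per kb. *Itgb1* stood at 5232, 4375 and 6401 normalized counts in EVX1-Δfs and at 4495, 3365 and 6496 in Del#3. Replicate 3 was the highest and replicate 2 the lowest library in both lines, and the log2 fold change was -0.19 (95% confidence interval -0.82 to 0.43). *Itgb5* varied little, at 1296, 1319.6 and 1270.1 and 1213, 1341 and 1126, with a log2 fold change of -0.082 (95% confidence interval -0.55 to 0.38). *Itgb1* made up 66.3 to 82.1% of the summed beta subunit level per kb and *Itgb5* 17.3 to 32.1%. *Itgb7*, a subunit known from lymphocytes, had the lowest log2 fold change of all members, -0.75 (95% confidence interval -1.80 to 0.30). It stood at 31.02, 29.3 and 18.9 and at 20.7, 18.6 and 8.54, and the lines overlapped. *Itgb2*, the subunit of leukocytes, had 1 to 5 reads per library.

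*Itga5* stood at 933, 756 and 553 normalized counts in EVX1-Δfs and at 919, 687 and 701 in Del#3, with a log2 fold change of 0.061 (95% confidence interval -0.52 to 0.65). It made up 39.4 to 55.1% of the summed alpha subunit level per kb, followed by the laminin receptor *Itga3* with 11.8 to 20.1%. *Itga3* and *Itga6*, the other laminin-binding subunit of epithelia, had log2 fold changes of 0.20 and -0.12. *Itgav*, whose dimers bind vitronectin and fibronectin, had the smallest p of all members. It stood at 189, 119.5 and 124 in EVX1-Δfs and at 228, 139 and 282 in Del#3, higher in Del#3 at all 3 replicate numbers although the lines overlapped, with a log2 fold change of 0.56 (95% confidence interval -0.20 to 1.31) (limma, unadjusted p = 0.132, adjusted p = 1.00; with the replicate number as a block, unadjusted p = 0.0547). *Itga4*, a fibronectin and VCAM1 receptor subunit, stood at 27.7, 12.9 and 12.996 and at 73.3, 10.5 and 29.9. The Del#3 libraries were both the highest and the lowest of the 6, and the log2 fold change was 0.75 (95% confidence interval -0.70 to 2.19). Without Del#3 replicate 2, *Itga4* came to 1.43 (limma, unadjusted p = 0.0318) and *Itgav* to 0.84 (unadjusted p = 0.0312), with adjusted p = 0.999 for both. The lowest values with a library left out were 0.085 for *Itga4*, without Del#3 replicate 1, and 0.34 for *Itgav*, without Del#3 replicate 3.

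*Itga7*, a laminin receptor subunit of muscle, was the only one of the 56 tested chains whose lines did not overlap. It stood at 17.2, 21.1 and 16.5 normalized counts in EVX1-Δfs and at 11.95, 10.5 and 11.7 in Del#3, so that the highest Del#3 library was below the lowest of EVX1-Δfs (p = 0.1 in an exact permutation test, two-sided, where no smaller value can be reached). Its log2 fold change was -0.63 (95% confidence interval -1.58 to 0.31) (limma, unadjusted p = 0.168, adjusted p = 1.00), and its share of the alpha subunit level was 1.04, 1.29 and 1.21% against 0.658, 0.693 and 0.730%. Among all genes tested, 1.80% had every Del#3 library below every EVX1-Δfs library and 1.71% had every one above. Among genes with too few reads to be tested, *Itga11*, a collagen receptor subunit, stood at 1.32, 2.34 and 1.18 in EVX1-Δfs and at 3.98, 5.81 and 6.41 in Del#3, and *Col17a1* was also without overlap; both were picked out after their values were seen, and no read count of *Itga11* was above 6. *Itga10*, another collagen receptor subunit, had a log2 fold change of 0.55 (95% confidence interval -0.51 to 1.60), with overlap.

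Further tested subunits and chains overlapped between the lines, and their values are given as the range over the 6 libraries. Of the integrins, *Itga9*, a receptor subunit for tenascin and other ligands, ran from 274 to 402 normalized counts and had a log2 fold change of 0.0028. *Itga8*, the nephronectin receptor subunit, ran from 44.5 to 116 (0.27 on the log2 scale), and *Itga2b*, known from platelets and early blood progenitors, from 63.3 to 116 (0.30). *Itgb3*, the partner of *Itga2b* and *Itgav*, ran from 17.6 to 38.3 (0.24), and *Itgb4*, the hemidesmosome partner of *Itga6*, from 14.2 to 46.9 (0.30). The collagen and laminin receptor subunit *Itga1* ran from 4.69 to 19.1 (-0.072). The epithelial laminin chain *Lamb3*, a partner of *Lama3*, ran from 26.3 to 62.7 (-0.12), and *Lamc3* from 10.6 to 18.6 (0.30).

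Among the collagens not yet described, *Col13a1*, which spans the membrane, ran from 114 to 157 normalized counts and had a log2 fold change of -0.027. The fibrillar *Col27a1*, of cartilage, ran from 152 to 179 and had a log2 fold change of -0.0090. *Col6a1* and *Col6a2*, the partners of *Col6a3*, had log2 fold changes of -0.11 and -0.072. *Col9a1* and *Col9a2*, the partners of *Col9a3*, had -0.055 and -0.17. The fibrillar *Col11a2* and *Col24a1* had 0.28 and -0.26, and the rest, *Col8a2*, *Col16a1*, *Col22a1*, *Col25a1* and *Col26a1*, lay between -0.30 and 0.23. None of these was without overlap between the lines.

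Across the families no member passed the test between Del#3 and EVX1-Δfs. Of the 60 tested members, chains and look-alikes, 0 had an adjusted p under 0.05 in limma, against 0.0155% of all genes, and DESeq2 and edgeR's quasi-likelihood test on the recovered reads called 0 as well. At an unadjusted p under 0.05, limma again gave 0 of 60, against 1.03% of all genes. With the replicate number as a block, 0 of 60 had an unadjusted p under 0.05, against 4.62% of all genes, and 0 passed after adjustment, against 0.0233%. The log2 fold changes of the 56 chains ran from -0.75 to 0.90, with 32 above 0 and 24 below (6497 and 6394 for all genes) and a median of 0.066, which was -0.012 with 27 of them above 0 without EVX1-Δfs replicate 3. The directions of single chains rest on few libraries: leaving out 1 of the 6 turned 32 of the 56 in some case and moved another 21 by over 1.5 times, and 3 kept within that range. Of the 56, 25 (44.6%) had an interval within a 2-fold change, against 61.1% of all genes, so that for the rest a 2-fold change in some direction lay inside the interval.

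**Figure D3:**
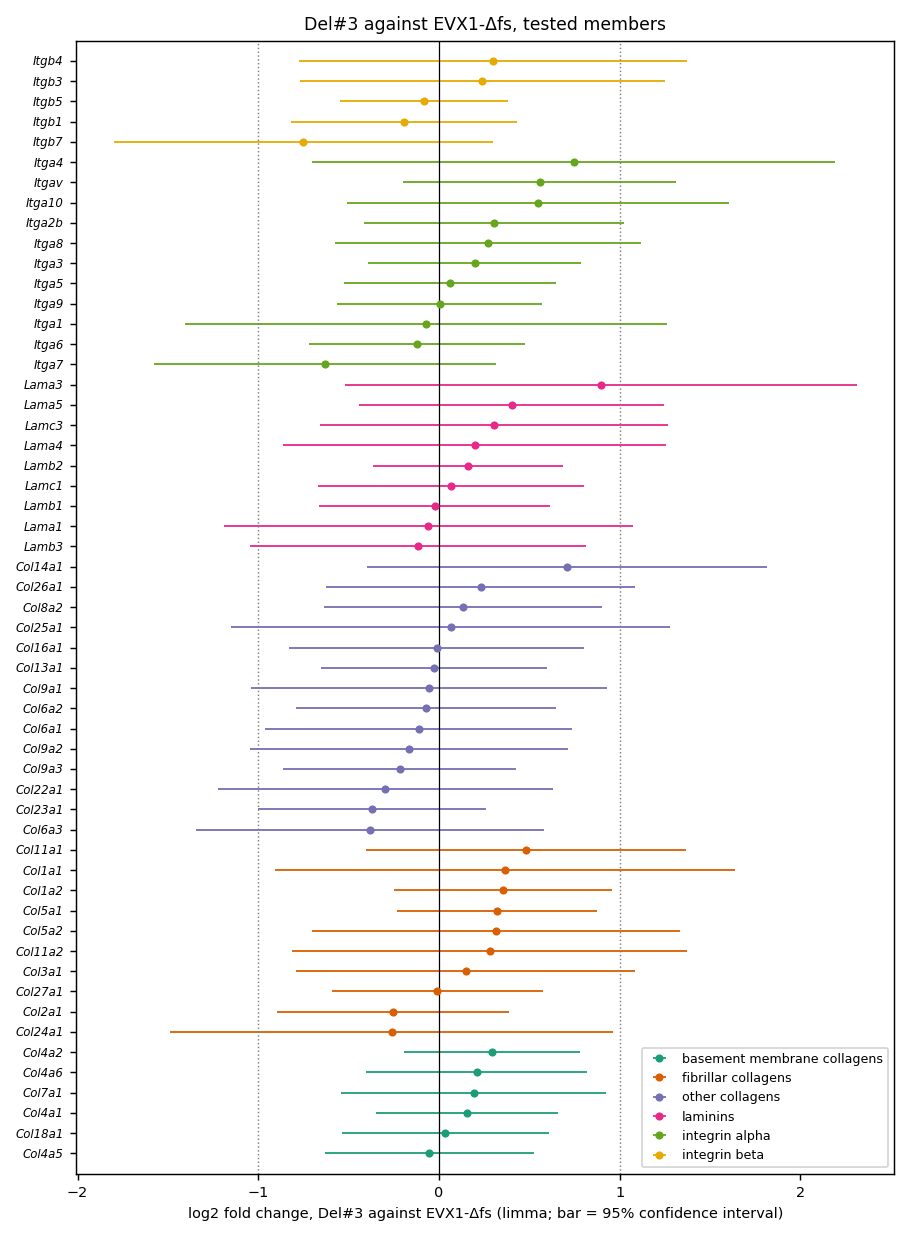
Log2 fold change of Del#3 against EVX1-Δfs for 55 of the 56 tested chains (points) with the 95% confidence interval (bars, limma), by family; dotted lines mark a 2-fold change. Every interval includes 0, and those of the 6 basement membrane collagens lie between the dotted lines.

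Most of the spread of the chains over the 6 libraries lay between replicate numbers, which hold 2 of the 5 degrees of freedom. Replicate 1 was the deepest library of each line, and the part of depth in this spread was not tested. Of the sum of squared log2 deviations of the 56 chains, the line took 14.001% and the replicate number 56.5%, close to the 13.7% and 60.5% of all genes tested. The pairing by number was clearly borne out by the values for replicate 1 only. The median ratio of the highest to the lowest library of a line was 1.65 in EVX1-Δfs and 1.64 in Del#3, against 1.60 and 1.63 over all genes. EVX1-Δfs replicate 3 was the lowest of the 6 libraries for 16 of the 56 chains (28.6%, against 18.3% of all genes), among them 5 of 6 basement membrane collagens. Laminins deviated most of the 6 families: their median log2 deviation from the mean of the line was 0.27, 0.074 and -0.40 for the EVX1-Δfs libraries, by replicate number, and 0.34, -0.21 and -0.033 for those of Del#3.

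The length of the mRNA moved with some of these deviations, mainly those of replicate 1 in both lines and of Del#3 replicate 2. In EVX1-Δfs replicate 3 the laminins were at -0.40 and all tested genes with over 8 kb of exon at -0.14. In EVX1-Δfs replicate 2 and Del#3 replicate 3 the signs of these groups differed. All 1323 tested genes with over 8 kb of exon had median deviations of 0.27, -0.053 and -0.14 in EVX1-Δfs and 0.34, -0.34 and 0.023 in Del#3, and the 457 genes with up to 1 kb had -0.18, -0.015 and 0.22 and -0.32, 0.29 and 0.065. The chains are long: their median exon length was 7.01 kb, against 3.59 kb over all listed genes, and 54 of the 67 with a length had over 5 kb. A correction for exon length moved the median log2 fold change of the 55 tested chains with a length from 0.066 to -0.092 (all genes, -0.025) and changed no call after adjustment. It lowered the value for 53 of the 55, turned the direction of 7 and moved another 34 by over 1.5 times. The part of length in the single values was not tested beyond this correction.

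**Figure D4:**
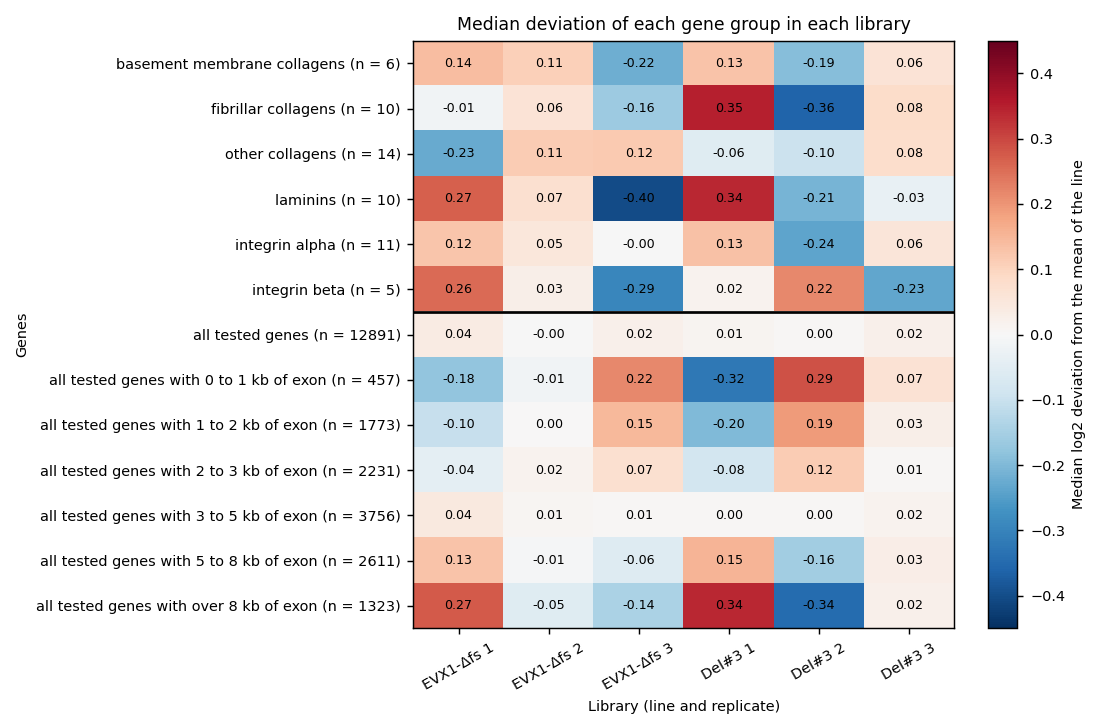
Median log2 deviation from the mean of the line (colour and printed value) of each gene family and of all tested genes by exon length, in each library. Genes with over 8 kb of exon were high in replicate 1 of both lines and low in Del#3 replicate 2, and the laminins ran from 0.34 in Del#3 replicate 1 to -0.40 in EVX1-Δfs replicate 3.

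The 4 look-alike genes encode a ceramide transfer protein (*Col4a3bp*), binding partners of integrin tails (*Itgb1bp1* and *Itgb1bp2*) and a centromere protein (*Itgb3bp*), and none passed the test. *Itgb1bp1* stood at 156, 123 and 230.4 normalized counts in EVX1-Δfs and at 110.0, 129 and 142 in Del#3, with a log2 fold change of -0.38 (95% confidence interval -1.07 to 0.32). *Col4a3bp* came to 0.10, *Itgb1bp2* to 0.15 and *Itgb3bp* to -0.24 on the same scale.

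Other matrix and adhesion genes were taken from a list written from general knowledge, of which 74 were listed and 71 tested. None of the 71 passed the test, and 0 had an unadjusted p under 0.05 in limma; DESeq2 and edgeR called 0 as well. Log2 fold changes lay above 0 for 51 and below 0 for 20, with a median of 0.10, against 6497 and 6394 and a median of 0.0022 for all genes. They lay above 0 for 8 of 13 basement membrane partners, 3 of 8 adhesive matrix genes, 21 of 25 genes of collagen folding, processing and crosslinking, 7 of 7 other matrix receptors and 12 of 18 integrin adaptors. With 1 library at a time left out, these counts ran from 5 to 11, 2 to 5, 15 to 19, 5 to 7 and 9 to 15, with 5 of 13 basement membrane partners above 0 without EVX1-Δfs replicate 3 and 15 of 25 folding genes without Del#3 replicate 2. The highest were *Adamts2*, a protease that trims procollagen, at 0.65 (95% confidence interval -0.26 to 1.56), the integrin ligand *Npnt* at 0.64 (95% confidence interval -0.31 to 1.59), and *Frem1*, a basement membrane protein, at 0.57 (95% confidence interval -0.48 to 1.63). The lowest were the matricellular gene *Smoc2* at -0.40 (95% confidence interval -1.70 to 0.90), *P4ha1*, a subunit of collagen prolyl hydroxylase, at -0.31 (95% confidence interval -0.99 to 0.37), and *Ppib*, a prolyl isomerase of collagen folding, at -0.25 (95% confidence interval -0.94 to 0.43). These values also moved when a library was left out: *Frem1* ranged from 0.25 to 1.16 and *Smoc2* from -0.82 to -0.030. Without EVX1-Δfs replicate 3, 41 of the 71 lay above 0 and their median was 0.021.

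*Hspg2* and *Fn1* were picked out after their values were seen, as partners of the chains above. *Hspg2*, which encodes the basement membrane proteoglycan perlecan, stood at 2924, 3045 and 694 normalized counts in EVX1-Δfs and at 3608, 1441 and 3241 in Del#3. *Fn1*, which encodes fibronectin, the ligand of the receptor made by *Itga5* and *Itgb1*, stood at 12464, 6639 and 2488 and at 11439, 3873 and 6987. Both were lowest in EVX1-Δfs replicate 3, and in Del#3 both were lowest in replicate 2, as was *Lama5*. The log2 fold changes were 0.48 (95% confidence interval -0.72 to 1.69) and 0.20 (95% confidence interval -1.01 to 1.40), and neither passed the test. Both turned without EVX1-Δfs replicate 3, to -0.22 for *Hspg2* and -0.43 for *Fn1*, and *Fn1* was -0.18 without Del#3 replicate 1.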

How the data were processed

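mRNA-seq libraries of D4 EBs from 2 lines, with 3 replicates each, were analysed. According to the submitters' notes and the methods of the study, poly(A)-selected RNA was sequenced on the Ion Proton, TopHat2 followed by TMAP placed the reads on mm9, and they were counted on genes with HTSeq at standard settings and normalized and tested with DESeq2; the annotation used for counting is not given in the sources used here. The signal deposited per gene and library is a normalized count. Each library has a smallest step, and 100% of its values are whole multiples of it (tolerance 0.01), which gave back the reads.

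Tests used limma (version 3.58.1, R 4.3.3) on log2(normalized count + 1) with its trend option, so that fold changes of low genes are understated. The 12891 genes that passed filterByExpr of edgeR (version 4.0.16; minimum count 10) on recovered reads were fitted together, Benjamini-Hochberg adjustment ran over all of them, and the threshold was 0.05. DESeq2 (version 1.42.0), edgeR's quasi-likelihood test, the replicate number as a block, TMM factors, pseudocounts of 0.5 and 5, other filters, leaving out each library and, after the data were seen, a loess correction for exon length (span 0.3) were alternatives. The scripts were tested on simulated data.

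The replicate numbers were taken to pair the samples because the design text calls each replicate a side by side differentiation on its own day; the titles name no day. Deviations from the line means correlated at 0.74, 0.32 and -0.053 for replicates 1, 2 and 3 over 12891 genes. EVX1-Δfs replicate 3 correlated at 0.42 with Del#3 replicate 2, and EVX1-Δfs replicate 2 at 0.25 with Del#3 replicate 3. The values thus set only the first pair clearly apart and do not bear out the third. Replicates are separate differentiations of the same line, so p-values measure the spread between differentiations, not between clones. The 9024579 to 15699124 reads per library and the 3 libraries per line both limit the precision, the reads most for members of low count. Levels per kb used union exon lengths of GENCODE vM1 on NCBIM37 (71 of 72 members; *Col26a1* had none). Promoter sequences are RefSeq's (GRCm38.p6 table). The windows of the genes whose sequence is printed matched NCBIM37 exactly and once. The other windows, used for the motif counts, were not matched to that build. Counting by gene does not separate isoforms, and overlapping genes such as *Col4a1* and *Col4a2* may lose shared reads. The columns hold 6 samples, all used. The values of 1 member are not reported here, and it is counted in the totals.

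Genes named were the main basement membrane, fibrillar and receptor genes, the members with the 5 highest and 5 lowest log2 fold changes, the look-alikes, the 3 highest and 3 lowest genes of the matrix list, *Evx1* and *Evx1as*; others are the leading or not tested members of a family or were picked after their values were seen. Members and lists were chosen with earlier results of these data known.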

Additional observations from a re-analysis of the deposited data

How the results depend on the processing

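No member and no gene of the matrix list passed the adjusted threshold under any of the 18 alternatives. Over all genes, 2 passed in the main analysis, 9 in DESeq2 with the replicate block, and 2 or 3 in every other alternative. With the replicate number as a block in limma, 3 genes and 0 members passed, and the block changed no call of a member. The number of members with an unadjusted p under 0.05 was 0, but 1 with the length correction and the replicate block (*Col23a1*, -0.47, limma, unadjusted p = 0.0308), and 0 to 3 when each library was left out; the 3 came without Del#3 replicate 2. *Evx1* ranged from -6.56 to -6.32 when each library was left out.

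With the length correction, with or without the block, *Lamc1* came to -0.11, *Col18a1* to -0.096 and *Col3a1* to -0.038, against 0.066, 0.035 and 0.15 without it. It also took *Col4a1* from 0.15 to 0.031, *Col4a2* from 0.29 to 0.17, *Col4a5* from -0.054 to -0.18 and *Col4a6* from 0.21 to 0.036. *Lama5* went from 0.40 to 0.16, *Lamb1* from -0.024 to -0.24 and *Lama1* from -0.059 to -0.27. *Col1a2* went from 0.35 to 0.094 and *Col5a1* from 0.32 to 0.13. Leaving out each library turned the direction of log2 fold changes that did not pass the test: *Col4a5* ranged from -0.19 to 0.043, *Lama1* from -0.53 to 0.39, *Lama5* from -0.051 to 0.77, *Lamb1* from -0.30 to 0.15, *Lamc1* from -0.22 to 0.31, *Col18a1* from -0.16 to 0.18, *Col1a1* from -0.11 to 1.03, *Col3a1* from -0.067 to 0.50, *Col5a2* from -0.076 to 0.62, *Itgb1* from -0.44 to 0.036, *Itga5* from -0.14 to 0.24, *Itga6* from -0.34 to 0.042, *Col4a3bp* from -0.34 to 0.56, *Itgb1bp2* from -0.26 to 0.82, *Ppib* from -0.50 to 0.063, *Hspg2* from -0.22 to 0.90, *Fn1* from -0.43 to 0.73. Others kept their direction with wide ranges: *Itgb7* from -0.97 to -0.38, *Col14a1* from 0.26 to 1.05, *Adamts2* from 0.42 to 0.99, *Npnt* from 0.31 to 0.90 and *P4ha1* from -0.55 to -0.088. *Col4a1* ranged from 0.044 to 0.28 and *Lamb2* from 0.026 to 0.30. The cause was not tested. The precision is limited by 3 libraries per line, and intervals wider than a 2-fold change leave the values of the low members uncertain.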
